A study of Homo sapiens with 4 samples.

Results

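A set of 8 genes that encode transcription factors of the primed pluripotent state (ZIC2, ZIC5, OTX2, SALL1, SALL2, SALL3, ETV4 and ETV5) was followed through RNA counts from H9 cells, an established line of human primed pluripotent stem cells. They were taken by symbol from a list whose rule names no measured value, though the list was drawn up with earlier results of these data known, and all 8 were found among the 33640 genes counted. All 8 also passed the filter used for ratios, a mean of at least 10 RPM (counts of a gene per 1000000 counts of its library) over the libraries, as did 11564 genes in all. The study asked how the order of profiling chromatin marks and the transcriptome in the same nuclei affects each readout. Reverse transcription (RT) with a poly-T primer was performed after (Post) or before (Pre) tagmentation, the cutting and tagging of DNA by the Tn5 enzyme. In each order, 1 library came from nuclei profiled for RNA and DNA, with antibodies to H3K27me3 and H3K27ac, and 1 from nuclei profiled for RNA only. The 4 groups were therefore Post, RNA and DNA, then Pre, RNA and DNA, then Post, RNA only, and Pre, RNA only. All came from untreated H9 cells kept in Essential8 medium on Geltrex at low oxygen, a single cell line, as nuclei lightly fixed with formaldehyde, while it is not stated which tagmentation steps the RNA only nuclei underwent. Each group is 1 library, so no difference below has a replicate check or a p-value. The 95% intervals cover counting error only, and are exact except for the difference between pairs.

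Primed human pluripotent cells resemble the epiblast around implantation and depend on FGF and activin signalling. ZIC2 and ZIC5 are zinc finger proteins of the ZIC family, of which ZIC2 binds enhancers that are active in primed cells. OTX2 is a homeodomain protein that in mouse helps to move pluripotent cells from the naive to the primed state and later patterns the anterior brain. SALL1, SALL2 and SALL3 are zinc finger proteins of the spalt-like family, relatives of the pluripotency factor SALL4. ETV4 and ETV5 are ETS factors of the PEA3 group, whose transcription is induced by FGF signalling through ERK.

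ZIC2 and ZIC5 are neighbours and are transcribed away from each other. On GRCh38, with GENCODE release 44, ZIC2 lies at chr13:99981784-99986765 on the plus strand and ZIC5 at chr13:99962964-99971767 on the minus strand, and their annotated starts are 10017 bp apart. Their promoters are shown because they are the only neighbouring pair among the 8 genes, and the levels of both are given next. The RefSeq promoter table (GRCh38.p14) held 5 of the 8 genes, ZIC2, ZIC5, OTX2, SALL2 and SALL3, and did not match SALL1, ETV4 or ETV5. Each sequence runs 5′ to 3′ along the gene's own strand, from 250 bases before to 50 after the annotated start. The ZIC2 window is chr13:99981534-99981833 on the plus strand, with capitals marking GGGCGG (the GC box) read on the reverse strand, and the ZIC5 window is chr13:99971718-99972017 on the minus strand, with capitals marking CCAAT (the CCAAT box) read on the forward strand.
ZIC2: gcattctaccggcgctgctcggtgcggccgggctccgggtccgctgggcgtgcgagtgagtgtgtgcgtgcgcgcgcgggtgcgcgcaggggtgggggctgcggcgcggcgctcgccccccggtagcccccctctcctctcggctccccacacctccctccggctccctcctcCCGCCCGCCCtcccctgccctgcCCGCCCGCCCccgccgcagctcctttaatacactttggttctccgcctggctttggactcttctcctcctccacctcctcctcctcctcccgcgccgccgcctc
ZIC5: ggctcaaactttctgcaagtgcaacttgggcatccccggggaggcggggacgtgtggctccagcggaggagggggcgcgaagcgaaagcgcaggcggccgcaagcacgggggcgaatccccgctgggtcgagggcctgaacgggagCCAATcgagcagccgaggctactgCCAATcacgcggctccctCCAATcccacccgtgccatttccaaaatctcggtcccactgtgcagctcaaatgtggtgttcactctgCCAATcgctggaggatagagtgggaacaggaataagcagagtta
The windows differ in composition. The ZIC2 window is 75% G or C with 35 CpG dinucleotides, and the ZIC5 window is 62.0% G or C with 22, against medians of 58.7% and 14 over the 35116 promoters in the table. ZIC2 had 4 matches to GGGCGG, all on the reverse strand and forming overlapping pairs, and ZIC5 had 0. ZIC5 had 4 matches to CCAAT, all on the forward strand, and ZIC2 had 0. At least 1 match on either strand was present in 45.0% of all promoters for GGGCGG and in 34.6% for CCAAT. Neither window held TAATCC, a site bound by homeodomain proteins of the bicoid class to which OTX2 belongs, or TATAAA, the TATA box, which were present in 6.36% and 11.5% of promoters.

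The libraries held 10089552 counts (Post, RNA and DNA), 8960724 (Pre, RNA and DNA), 6368721 (Post, RNA only) and 9379073 (Pre, RNA only). The Post, RNA only library stood apart. In it, 6 genes whose symbols begin with FP236383 or FP671120 took 34.8% of all counts, against 10.7 to 15.8% in the other libraries, which leaves a smaller share for all other genes. The median gene differed by -0.44 on the log2 scale between Post and Pre for RNA only, and by -0.09 for RNA and DNA. Ratios are therefore given relative to the median gene, as log2((RPM + 1)/(RPM + 1)) minus the median over the 11564 genes. The markers of primed cells fixed for the check of identity were present, 10 of 10 with counts in every library and summed to 1919 to 2340 RPM. The 9 naive markers found summed to 11.6 to 16.5 RPM, with counts for 7 to 9 of them in each library. The primed markers POU5F1, SOX2 and LIN28A are also in the core pluripotency list used below, so the first sum is not particular to the primed state.

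The 8 genes together gave 3372 counts (Post, RNA and DNA), 3341 counts (Pre, RNA and DNA), 1881 counts (Post, RNA only) and 3316 counts (Pre, RNA only). SALL2 had the most counts in every library. ETV5, ETV4, SALL3, ZIC2, ZIC5, SALL1 and OTX2 followed by mean RPM. In RPM, each gene varied little between libraries. Its highest library was 1.21 to 1.57 times its lowest, with the smallest range for ZIC5 and the largest for ETV5. These ranges are not relative to the median gene, which was lower in Post than in Pre for RNA only. On that relative scale, given below, the log2 ratio of Post over Pre for RNA only was 0.50 for ZIC5 and -0.20 for ETV5. In libraries of bulk RNA, fewer cells that express a gene and less RNA of it per cell cannot be told apart.

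ZIC2 was measured at 30.1 RPM from 304 counts (Post, RNA and DNA), 35.2 RPM from 315 counts (Pre, RNA and DNA), 30.0 RPM from 191 counts (Post, RNA only) and 28.0 RPM from 263 counts (Pre, RNA only). ZIC5 was measured at 27.5 RPM from 277 counts (Post, RNA and DNA), 29.7 RPM from 266 counts (Pre, RNA and DNA), 25.8 RPM from 164 counts (Post, RNA only) and 24.6 RPM from 231 counts (Pre, RNA only). Both were highest in the Pre, RNA and DNA library and lowest in the Pre, RNA only library, so that the same 2 libraries set the range of each gene. The intervals of those libraries, 31.4 to 39.3 RPM (Pre, RNA and DNA) and 24.8 to 31.6 RPM (Pre, RNA only) for ZIC2, overlapped narrowly. Those of ZIC5, 26.2 to 33.5 RPM (Pre, RNA and DNA) and 21.6 to 28.0 RPM (Pre, RNA only), also overlapped. The RPM of both genes took the same order over the 4 libraries, though ZIC2 hardly differed between the 2 Post libraries, at 30.1 and 30.0 RPM. The promoter windows printed for this pair had no motif in common among those searched. Any link between these windows and the levels was not tested. The counts of ZIC2 over ZIC5, a ratio that no scaling of a library can move, were 1.097 (Post, RNA and DNA), 1.18 (Pre, RNA and DNA), 1.16 (Post, RNA only) and 1.14 (Pre, RNA only), with every interval overlapping the others.

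OTX2 was the least abundant of the 8 genes by RPM, at 12.8 RPM from 129 counts (Post, RNA and DNA), 16.7 RPM from 150 counts (Pre, RNA and DNA), 14.0 RPM from 89 counts (Post, RNA only) and 14.5 RPM from 136 counts (Pre, RNA only). Its intervals all overlapped, from 10.7 to 15.2 RPM in the lowest library (Post, RNA and DNA) and from 14.2 to 19.6 RPM in the highest (Pre, RNA and DNA).

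SALL2 was measured at 93.9 RPM from 947 counts (Post, RNA and DNA), 115 RPM from 1031 counts (Pre, RNA and DNA), 89.5 RPM from 570 counts (Post, RNA only) and 105 RPM from 985 counts (Pre, RNA only). It was lower in each Post library than in the Pre library beside it, with intervals that did not overlap for either pair in RPM (88.0 to 100.03 in Post against 108 to 122 in Pre for RNA and DNA, and 82.3 to 97.2 in Post against 98.6 to 112 in Pre for RNA only). SALL3 was measured at 34.1 RPM from 344 counts (Post, RNA and DNA), 41.4 RPM from 371 counts (Pre, RNA and DNA), 34.5 RPM from 220 counts (Post, RNA only) and 38.1 RPM from 357 counts (Pre, RNA only). It too was lower in each Post library, but its intervals overlapped in both pairs. SALL1, mutated in Townes-Brocks syndrome, was measured at 24.0 RPM from 242 counts (Post, RNA and DNA), 26.1 RPM from 234 counts (Pre, RNA and DNA), 19.8 RPM from 126 counts (Post, RNA only) and 25.2 RPM from 236 counts (Pre, RNA only). Its lowest library was Post, RNA only, with an interval of 16.5 to 23.6 RPM that overlapped those of all the others.

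ETV5 was measured at 64.2 RPM from 648 counts (Post, RNA and DNA), 61.3 RPM from 549 counts (Pre, RNA and DNA), 43.7 RPM from 278 counts (Post, RNA only) and 68.3 RPM from 641 counts (Pre, RNA only). Its Post, RNA only value stood below the other libraries, with an interval of 38.7 to 49.1 RPM against lower bounds of 56.2 to 63.2 RPM elsewhere. ETV4 was measured at 47.7 RPM from 481 counts (Post, RNA and DNA), 47.4 RPM from 425 counts (Pre, RNA and DNA), 38.2 RPM from 243 counts (Post, RNA only) and 49.8 RPM from 467 counts (Pre, RNA only). It was also lowest in Post, RNA only, at 33.5 to 43.3 RPM, where only the interval of the Pre, RNA only library, from 45.4 RPM, and that of the Post, RNA and DNA library, from 43.5 RPM, lay wholly above it.

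**Figure D1:**
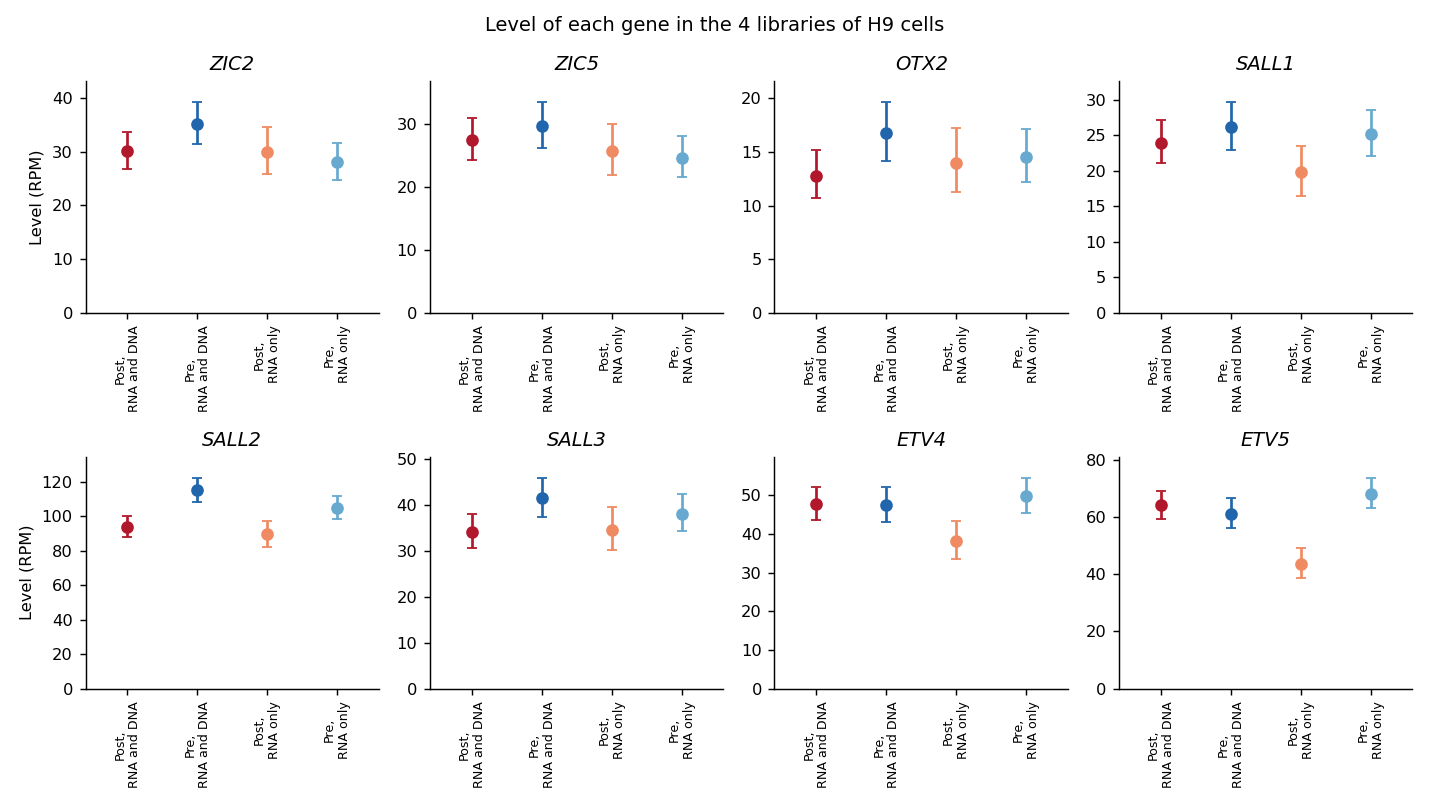
Level of each of the 8 genes in RPM (vertical axis from 0, a separate scale for each gene) in the 4 libraries of H9 cells, with points for the library's value and bars for the 95% counting interval. By highest over lowest RPM, with no median gene subtracted, ETV5 shows the widest range and ZIC5 the narrowest. ETV5 has 43.7 RPM in Post, RNA only against 61.3 to 68.3 RPM in the other libraries.

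To set the genes against each other, RPM was divided by the exon length of each gene in kb. SALL2 was first at 16.6 to 21.4 RPM per kb and ETV4 second at 10.9 to 14.2 RPM per kb in all 4 libraries. The interval of ETV4 overlapped that of the next gene, ZIC2, in Post, RNA only alone. ETV5 and ZIC2 came next, in either order. ETV5 was above ZIC2 without overlap of their intervals in Post, RNA and DNA (11.1 against 9.16 RPM per kb) and in Pre, RNA only (11.8 against 8.52 RPM per kb), whereas the 2 genes overlapped in Pre, RNA and DNA and in Post, RNA only. ZIC5 and SALL3 shared the fifth and sixth places with overlapping intervals in every library. SALL1 and OTX2 came last at 3.14 to 4.93 RPM per kb, again with overlapping intervals in every library, and in all but Post, RNA and DNA the upper of these overlapped the gene before it as well. Reads primed from the poly(A) end do not cover a transcript evenly, so these values per length order the genes only roughly.

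The order of RT and tagmentation was compared first in the nuclei profiled for RNA and DNA. None of the 8 genes differed by 2-fold either way relative to the median (0 of 8), against 0.251% of the 11564 genes. Their median relative log2 ratio of Post over Pre was -0.07, beside 0 for all genes by construction, with 2 genes above and 6 below. SALL2 was lower in Post, at a relative log2 ratio of -0.20 (95% interval -0.33 to -0.07), and was the only gene of the 8 whose interval excluded 0. OTX2 had the lowest value at -0.27 (-0.65 to 0.05), with the widest interval. ETV5 had the highest at 0.16 (-0.0045 to 0.33), followed by ETV4 at 0.10 (-0.09 to 0.29). ZIC2 (-0.12), ZIC5 (-0.02), SALL1 (-0.02) and SALL3 (-0.18) lay between, within the 5th to 95th percentile of all genes, -0.44 to 0.36.

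In the RNA only nuclei the relative ratios of Post over Pre ran the other way for most of the genes. Again 0 of 8 differed by 2-fold, against 1.38% of all genes, but 7 of the 8 lay above the median gene and their median was 0.26. ZIC2 was highest at 0.53 (0.26 to 0.81), a relative fold of 1.45, from 30.0 RPM in Post and 28.0 RPM in Pre. ZIC5 followed at 0.50 (0.20 to 0.80), then OTX2 at 0.39 (-0.02 to 0.78), SALL3 at 0.30 (0.05 to 0.54) and SALL2 at 0.21 (0.06 to 0.36). SALL1 at 0.11 and ETV4 at 0.06 had intervals that held 0. ETV5 alone was lower in Post, at -0.20 (-0.42 to -0.0035), an interval that reached almost to 0. All 8 values lay within the 5th to 95th percentile of all genes, -0.46 to 0.60. Without the median subtracted the 8 genes had a median of -0.18 in this pair, so that the direction is a statement about these genes relative to the typical gene and not about their RPM.

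**Figure D2:**
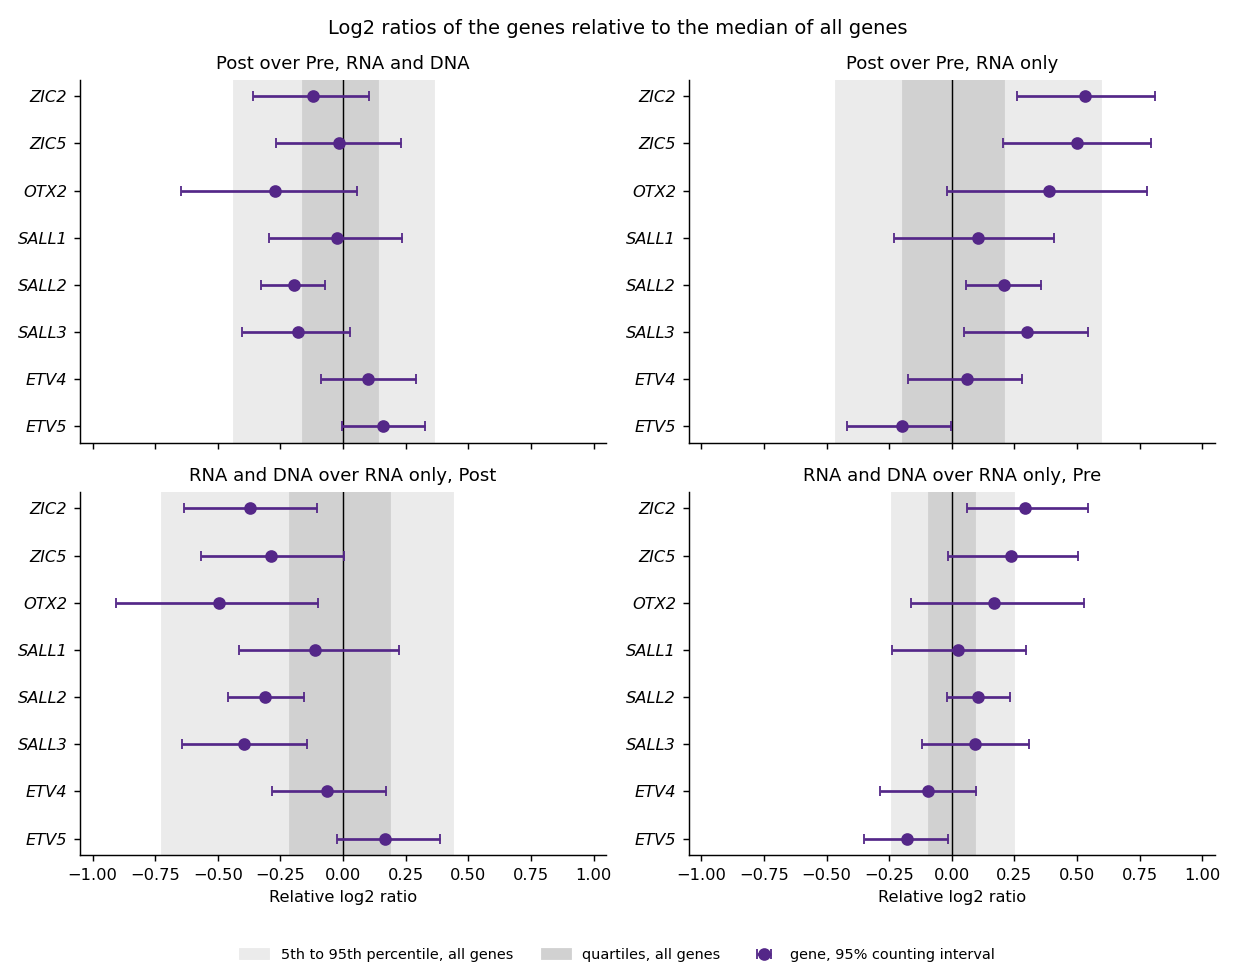
Relative log2 ratio (horizontal axis, 0 is the median of all genes) of the 8 genes (vertical axis) in the 4 comparisons, with points for the ratio and bars for the 95% counting interval. The dark and light bands span the quartiles and the 5th to 95th percentile of all genes, and ZIC2, ZIC5, SALL2 and SALL3 lie above 0 without overlap in Post over Pre, RNA only, where ETV5 lies below.

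The difference between these 2 pairs, which share no library, was taken for each gene as the ratio for RNA and DNA minus that for RNA only. Its 95% interval was a normal approximation from the counts and not an exact one. ZIC2 (-0.65, -1.01 to -0.30), ZIC5 (-0.51, -0.89 to -0.14), OTX2 (-0.66, -1.17 to -0.14), SALL2 (-0.41, -0.60 to -0.21) and SALL3 (-0.48, -0.80 to -0.16) had counting intervals below 0. ETV5 had one above 0, at 0.36 (0.10 to 0.62), and SALL1 (-0.13) and ETV4 (0.04) had intervals that held 0. Over all genes the same difference had a median of 0.01 and a 5th to 95th percentile of -0.85 to 0.56, a range that contains all 8 values. Relative to the median gene, ETV5 was thus opposite in direction to both ZIC genes, OTX2, SALL2 and SALL3 beyond counting error. Over protein-coding genes the median of this difference varied with the length of DNA spanned. It was -0.89 under 5 kb (as for ZIC2), -0.57 at 5 to 10 kb (ZIC5) and -0.28 at 10 to 20 kb (OTX2, SALL1 and SALL2). It was -0.07 at 20 to 50 kb (SALL3) and 0.06 at 50 to 100 kb (ETV4 and ETV5). ZIC2 and ZIC5 lay above these medians, as ETV5 did, while OTX2, SALL2 and SALL3 lay below.

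Profiling DNA beside RNA was compared within each order of RT. These comparisons use the same 4 libraries as those above, and each shares 1 library with each of them, so they restate the same counts along the other axis. With tagmentation first (Post), 0 of 8 genes differed by 2-fold, against 2.36% of all genes, and the median of the 8 was -0.30, with 1 above and 7 below. OTX2 was lowest at -0.50 (-0.91 to -0.10), then SALL3 at -0.40 (-0.64 to -0.15), ZIC2 at -0.37 (-0.64 to -0.10) and SALL2 at -0.31 (-0.46 to -0.16), all with intervals below 0. ZIC5 was at -0.29 (-0.57 to 0.0023). SALL1 at -0.11, ETV4 at -0.06 and ETV5 at 0.17 had intervals that held 0. In RPM, before the median was subtracted, the 4 genes with intervals below 0 differed by only -0.12 (OTX2) to 0.07 (SALL2) on the log2 scale, with ZIC2 at 30.1 RPM for RNA and DNA and 30.0 RPM for RNA only, while the median gene was 0.38 higher on the log2 scale with DNA profiled.

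With RT first (Pre), 0 of 8 genes differed by 2-fold between RNA and DNA and RNA only, against 0.0173% of all genes, and the median of the 8 relative log2 ratios was 0.10. ZIC2 was higher with DNA profiled, at 0.29 (0.06 to 0.54), where 96.9% of all genes had a lower ratio. ETV5 was lower, at -0.18 (-0.35 to -0.02), where 9.54% of genes had a lower ratio. The other 6 genes, from -0.09 for ETV4 to 0.23 for ZIC5, had intervals that held 0.

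The order of the 8 genes in the RNA only pair went with the length of DNA they occupy, a feature looked at after these values were seen. ZIC2 spans 4.98 kb and ZIC5 8.80 kb. SALL2 spans 16.1 kb, SALL1 16.4 kb, OTX2 16.8 kb and SALL3 22.9 kb. ETV4 spans 51.8 kb and ETV5 64.0 kb. Across the 8 genes, Spearman's rho of Post over Pre with span was 0.38 for RNA and DNA and -0.81 for RNA only. Across 9881 protein-coding genes it was 0.48 for RNA and DNA and -0.34 for RNA only, and in both cases the genes share libraries and depth and are not replicates, so no p-value is given.

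Set against protein-coding genes of like span, the 8 genes lay within the spread of their bins. In the RNA only pair, genes spanning under 5 kb had a median of 0.55 and those of 5 to 10 kb a median of 0.32, beside 0.53 for ZIC2 and 0.50 for ZIC5. Genes of 10 to 20 kb had a median of 0.15, beside 0.11 for SALL1, 0.21 for SALL2 and 0.39 for OTX2. Genes of 20 to 50 kb had a median of 0.01, beside 0.30 for SALL3, and 86.1% of those genes had a lower ratio than SALL3. Genes of 50 to 100 kb had a median of -0.06, beside 0.06 for ETV4 and -0.20 for ETV5. In the RNA and DNA pair the medians ran the other way, from -0.34 under 5 kb to 0.01 at 50 to 100 kb, and ZIC2 at -0.12 and ZIC5 at -0.02 lay above the medians of their bins, -0.34 and -0.25. Over all 4 comparisons, between 10.2% (ETV5, RNA and DNA over RNA only, Pre) and 86.1% (SALL3, Post over Pre, RNA only) of the protein-coding genes in its bin had a lower ratio than each of the 8. Whether span itself bears on the ratios was not tested.

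**Figure D3:**
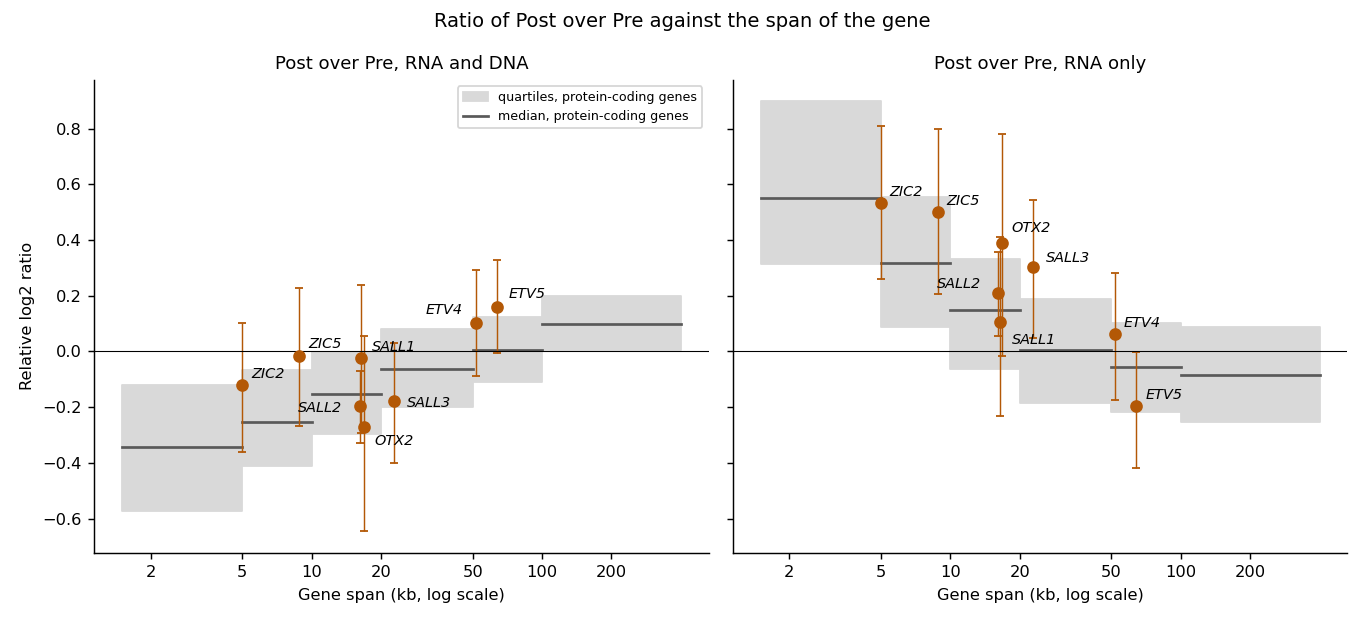
Relative log2 ratio of Post over Pre (vertical axis) against gene span in kb (horizontal axis, log scale) for nuclei profiled for RNA and DNA (left) and RNA only (right). Points are the 8 genes with 95% counting intervals, and lines and boxes are the medians and quartiles of protein-coding genes in 6 bins of span, the outer 2 of which are open-ended and drawn to a set limit. For RNA only the medians step down from 0.55 to -0.09 with span, and for RNA and DNA they step up from -0.34 to 0.10.

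Because ratios between genes of one library need no scaling, the composition of the 8 genes was also compared. ETV5 gave 19.2% of their counts in Post, RNA and DNA (95% interval 17.9 to 20.6%), 16.4% in Pre, RNA and DNA (15.2 to 17.7%), 14.8% in Post, RNA only (13.2 to 16.5%) and 19.3% in Pre, RNA only (18.0 to 20.7%). The share in Post, RNA only was thus below that of the Pre library beside it, while in the RNA and DNA pair the Post share was above, each time without overlap. ETV5 over ZIC2 was a pair picked after their values were seen. For RNA and DNA it was 2.13 in Post (1.86 to 2.45) and 1.74 in Pre (1.51 to 2.01). For RNA only it was 1.46 in Post (1.21 to 1.76) and 2.44 in Pre (2.11 to 2.82). ETV5 has the longest span of the 8 genes and ZIC2 the shortest. A ratio within a library does not remove differences that go with span. For Post over Pre, protein-coding genes in the span bin of ZIC2 had medians of 0.55 (RNA only) and -0.34 (RNA and DNA). Those in the bin of ETV5 had -0.06 and 0.01, so the bin medians ran in the same directions as this ratio. The part of span in it was not tested. SALL2 over SALL3 was 2.75 (Post, RNA and DNA), 2.78 (Pre, RNA and DNA), 2.59 (Post, RNA only) and 2.76 (Pre, RNA only), with overlapping intervals throughout. ETV5 over ETV4 was 1.35 (Post, RNA and DNA), 1.29 (Pre, RNA and DNA), 1.14 (Post, RNA only) and 1.37 (Pre, RNA only), again with overlapping intervals.

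**Figure D4:**
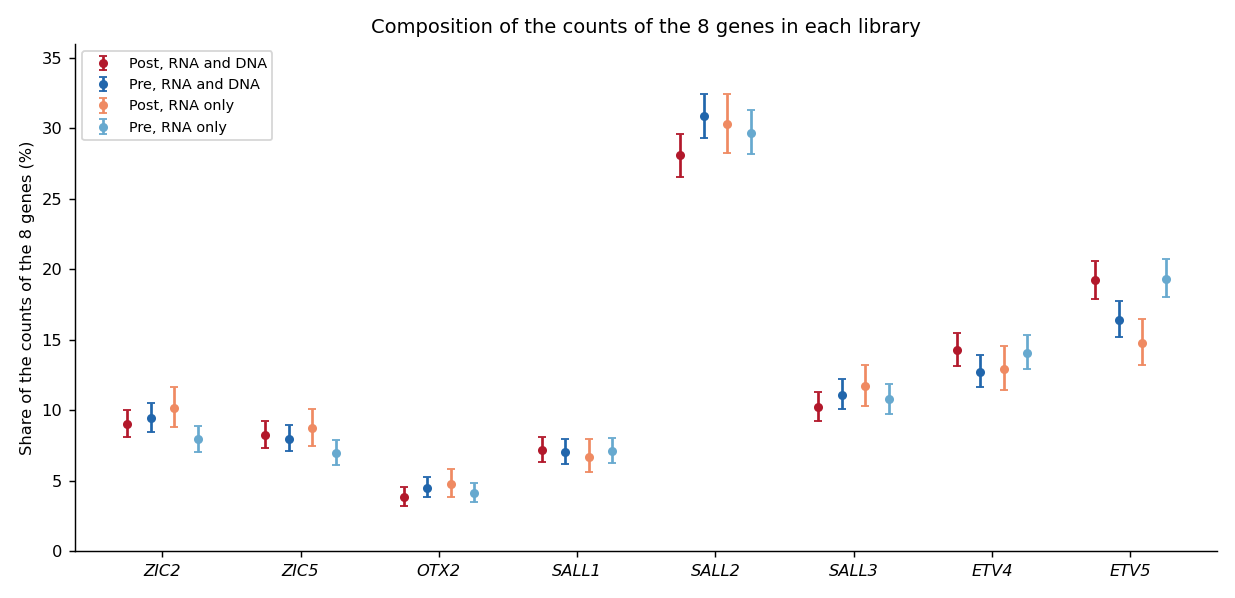
Share of the counts of the 8 genes (vertical axis, %) that each gene (horizontal axis) gave in the 4 libraries, with points for the share and bars for the 95% exact binomial interval. SALL2 gave 28.1 to 30.9% in every library, and ETV5 gave 14.8% in Post, RNA only against 19.3% in Pre, RNA only.

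For each of the 8, the gene with the most similar pattern over the 4 libraries was found among 11563 genes, by the largest difference between log2(RPM + 1) profiles after each was centred on its own mean. ZIC2 was nearest to AC087276.2 (0.01), ZIC5 to LYPLAL1 (0.03), OTX2 to NUDT21 (0.0053), SALL1 to AC010168.1 (0.0049), SALL2 to HNRNPDL (0.0033), SALL3 to SRF (0.0099), ETV4 to GPM6A (0.01) and ETV5 to WIPI1 (0.01). Each profile has only 4 points, and nothing is drawn from the likeness. Among the 8, ZIC2 and ZIC5 were each other's nearest at 0.06, with 34 genes as near or nearer to ZIC2 and 45 to ZIC5. OTX2 and SALL3 were each other's nearest at 0.05, with 52 genes as near or nearer to OTX2 and 79 to SALL3. So were SALL1 and ETV4 at 0.08, with 910 genes for SALL1 and 739 for ETV4. SALL2 was nearest to SALL3 at 0.07, with 310 genes, and ETV5 to ETV4 at 0.17, with 3711 genes.

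Several of the genes share their place with others, and because the strand setting of the counting is not given in the sources used here, reads of overlapping genes cannot be told apart where they overlap. ETV4 (chr17:43527844-43579620, minus strand) lies wholly within DHX8, which encodes an RNA helicase of splicing and runs on the opposite strand. DHX8 was measured at 91.6 RPM (Post, RNA and DNA), 93.3 RPM (Pre, RNA and DNA), 73.3 RPM (Post, RNA only) and 102 RPM (Pre, RNA only). OTX2 (chr14:56799905-56816693, minus strand) shares 3511 bp with the antisense gene OTX2-AS1, which was measured at 28.9 RPM (Post, RNA and DNA), 29.6 RPM (Pre, RNA and DNA), 21.2 RPM (Post, RNA only) and 31.9 RPM (Pre, RNA only). It had more counts than OTX2 in every library. ETV5 (chr3:186046314-186110318, minus strand) shares 4651 bp with DGKG, a diacylglycerol kinase gene on the same strand at 15.5 to 26.96 RPM, and 1778 bp with ETV5-AS1 at 0.942 to 2.97 RPM. SALL1 (chr16:51135982-51152334) and SALL2 (chr14:21521080-21537216), both on the minus strand, are crossed by unnamed long noncoding genes that had no symbol of their own in the counts used here. No annotated gene overlapped ZIC2, ZIC5 or SALL3 (chr18:78979818-79002677, plus strand).

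Levels of relatives of the 8 genes differed widely. SALL4, which sustains pluripotency, was measured at 116 RPM (Post, RNA and DNA), 135 RPM (Pre, RNA and DNA), 101 RPM (Post, RNA only) and 128 RPM (Pre, RNA only). ETV1, the third PEA3 factor, was measured at 142 RPM (Post, RNA and DNA), 154 RPM (Pre, RNA and DNA), 110 RPM (Post, RNA only) and 144 RPM (Pre, RNA only). ZIC1, CRX, OTX1 and ZIC4 were at most 3.31 RPM, where the floor of 3 counts lies at 0.297 to 0.471 RPM. ZIC1 had 0.785 to 2.18 RPM, CRX 0.942 to 3.31 RPM, OTX1 0.112 to 0.396 RPM and ZIC4 at most 0.595 RPM, with 0 counts of ZIC4 in Post, RNA only.

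Lists of the wider programme gave the 8 genes a background. Of 20 other genes of the primed state, 19 passed the filter, and 0 differed by 2-fold in any of the 4 comparisons, against 0.0173 to 2.36% of all genes. Their median relative log2 ratio of Post over Pre was -0.22 for RNA and DNA and 0.09 for RNA only, against -0.07 and 0.26 for the 8 genes. PTPRZ1, a receptor phosphatase, was the most abundant at 950 (Post) and 899 (Pre) RPM for RNA and DNA and 652 (Post) and 874 (Pre) RPM for RNA only. Of 20 genes of FGF and ERK signalling, 13 passed and 0 differed by 2-fold, with medians of -0.05 for RNA and DNA and 0.03 for RNA only. DUSP6, the ERK phosphatase that like ETV4 and ETV5 is induced by the pathway, had 105 RPM in Post and 186 RPM in Pre for RNA and DNA, a relative log2 ratio of -0.72, the lowest of the 13, where ETV4 and ETV5 had 0.10 and 0.16. The other abundant genes of that list, the ERK pathway inhibitors SPRED1, IL17RD and SPRY4, had 0.33, 0.04 and -0.05 in the same pair. For RNA only DUSP6 had 113 RPM in Post and 176 RPM in Pre, at -0.20, beside -0.20 for ETV5. Of 12 core pluripotency genes 10 passed and 0 differed by 2-fold, with medians of -0.19 for RNA and DNA and 0.14 for RNA only. At such shares of all genes, lists this short would mostly hold 0 genes past 2-fold, so these counts say little about the lists.

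Markers of other cell types were summed as a check on the cells. The 10 neural markers summed to 33.9 to 38.2 RPM, most of it TUBB3 and DCX, and SOX1 had 0 counts in 3 libraries and 1 count in Pre, RNA only. The 10 mesendoderm markers summed to 6.12 to 10.1 RPM. The 8 fibroblast markers summed to 161 to 232 RPM, most of it THY1, which primed cells also express. COL1A2 had 20.3 to 29.6 RPM, COL1A1 7.38 to 10.8 RPM and PDGFRB 8.16 to 11.1 RPM, while COL3A1 and LUM had at most 3 counts in any library. The part of these lists in the ratios of the 8 genes was not tested.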

How the data were processed

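The authors deposited whole-number counts for each gene symbol, from poly(A) RNA aligned to GRCh38. The submitters' processing notes name STAR 2.7.11b, Bowtie2 2.5.3, Bowtie 1.3.1, SAMtools and Trim Galore 0.6.10, and the gene annotation and strand setting are not given in the sources used here. The methods describe removal of duplicates by molecular identifier for single-cell data, and whether each step applied to these 4 libraries is not stated. Another 60 barcode columns were not used, since no label gives their condition. Counts were scaled to RPM by library total, a pseudocount of 1 RPM was added, and ratios were taken relative to the median of all genes whose mean reached 10 RPM. A gene counted as differing at 2-fold or more. With 1 library per group there was no test. Intervals were exact, Poisson for a level, conditional binomial for a ratio and Clopper-Pearson for a share, at 95%. Only the interval of the difference between pairs was not exact, being a normal approximation on the log2 scale. Symbols were matched to GENCODE release 44, 21894 directly and 512 through an older symbol, which placed 90.6% of the genes at 10 RPM or more. The 8 genes are all named, their relatives and the other lists by rule, with at most the 4 most abundant genes of a list, and some results are not reported here. Alternatives were other scalings, filters, pseudocounts, a 1.5-fold threshold and thinning, and the comparison with genes of like span was added after the data were seen. The 8 genes and the lists were chosen with earlier results of these data known. The 2-fold call and the interval of a ratio were tested on simulated counts, with changes larger than those of the 8 genes. The intervals of levels, of shares and of the difference between pairs were not tested in this way. Scripts ran in R 4.3.3 with edgeR 4.0.16 (for TMM scaling) and Python 3.11.15 with scipy 1.17.1, pandas 2.3.3, matplotlib 3.10.9 and numpy 2.4.6.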

Additional observations from a re-analysis of the deposited data

Results flagged for a closer look

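Relative to the median gene, the difference of SALL2 between Post and Pre had opposite signs in the 2 kinds of nuclei, with counting intervals that excluded 0 in both. The relative log2 ratio of Post over Pre was -0.20 for RNA and DNA and 0.21 for RNA only, a difference of -0.41. In RPM SALL2 was lower in Post in both, at log2 ratios of -0.29 for RNA and DNA and -0.23 for RNA only with no median subtracted. For RNA only it came to -0.01 with no filter, and against genes of like span it was -0.04 for RNA and DNA and 0.06 for RNA only. The ratio of RNA and DNA over RNA only for ZIC2 also had opposite signs relative to the median gene, at -0.37 in Post and 0.29 in Pre, a difference of -0.66. The signs were not opposite with no median subtracted, at 0.0065 in Post and 0.32 in Pre, or against genes of like span, at 0.41 in Post and 0.15 in Pre. Each condition is 1 library, so neither difference was tested against a spread between samples. Both rest on the same 4 libraries, of which Post, RNA only had the lowest depth and 34.8% of its counts in the FP236383 and FP671120 genes, and the part of this in the differences was not tested.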

How the results depend on the processing

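The count of genes differing by 2-fold stayed at 0 of 8 in each comparison under every alternative run, also at 1.5-fold, where 3.12%, 7.26%, 8.97% and 0.216% of all genes passed (Post over Pre for RNA and DNA and for RNA only, then RNA and DNA over RNA only in Post and in Pre). With no median subtracted, the median of the 8 genes was -0.18 for Post over Pre, RNA only, and 0.0785 for RNA and DNA over RNA only, Post, and 10 of the 32 single ratios changed sign. Relative to protein-coding genes of like span, the median for RNA and DNA over RNA only, Post, was 0.0264 and that for Post over Pre, RNA and DNA, was 0.11, and 9 of 32 ratios changed sign. Other scalings move all genes alike and cancel when the median is subtracted, so they show nothing about stability. Protein-coding genes only and both pseudocounts changed the sign of 0 of 32. A minimum of 1 RPM changed 1, thinning to the smallest total 2, and no filter 5, where SALL2 in Post over Pre, RNA only, came to -0.01. No replicate could be left out and no paired analysis was possible because each group has 1 library.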
